A study of Mus musculus with 4 samples.

Results

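SOX3 binding was examined around 10 mouse genes of the Hes, Hey and Id families (Hes1, Hes3, Hes5, Hes6, Hey1, Hey2, Id1, Id2, Id3 and Id4), out of 22367 protein-coding genes in the GENCODE vM1 annotation of the mouse genome (mm9). Each gene was given a window made of its body plus 50 kb to each side, and every SOX3 peak that overlapped the window was taken. The genes were chosen by family and not by a threshold on these peaks, but with earlier results of these data known. The peaks came from ChIP-Seq of endogenous SOX3 in neural progenitor (NP) cells, which were produced from R1 embryonic stem (ES) cells, a mouse line, over 4 days of monolayer culture in N2B27 medium. Chromatin of 3 biological replicates was precipitated with a goat antibody raised against human SOX3, and an input sample without antibody served the authors as background. All samples came from 1 ES cell line, with no mutation or further treatment named for any of them, so the design holds 1 group of replicates and no comparison between conditions. The lists hold binding and no expression, so the identity of the cells could not be checked from them. Of the progenitor genes Nes, Sox2 and Pax6, each had common sites in its window (4, 3 and 2), as did 28.7% of all genes. Sox1 was not matched by symbol in the annotation.

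The Hes and Hey proteins are basic helix-loop-helix repressors, and most of those studied in the nervous system, Hes6 being an exception, keep progenitors undifferentiated by silencing proneural genes such as the Neurogenins. Many of their genes are activated by Notch signalling, in which the cleaved receptor joins the DNA-binding protein RBPJ at their regulatory sequences. The Id proteins have a helix-loop-helix domain but no DNA-binding region, and they hold E proteins, the partners of proneural factors, away from DNA; their genes are well known targets of BMP signalling through SMAD proteins. SOX3 belongs to the SOXB1 group, which is expressed in progenitors and also opposes their differentiation.

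The peak lists held 18816 peaks in replicate 1, 8096 in replicate 2 and 40543 in replicate 3, each with a score that is 10 times the negative log10 of the p-value given by the peak caller MACS. The lowest score was 50 in each list, which is the p-value threshold of 1e-05. The score grows with the depth of a library, and no read counts were at hand, so the depth was unknown and scores were read as a rank or percentile within their own list. Where peaks from all 3 lists covered the same bases (1 bp or more), the shared stretch was called a common site, and the genome had 5537 of them. Replicates 2 and 3 were more alike in their peak edges than either was with replicate 1: at all common sites their peaks began at the same base in 35% of cases, against 0.939% for replicates 1 and 2 and 1.46% for replicates 1 and 3. Around the Hes, Hey and Id genes this was the case at 7 of 13 common sites, and at 12 of them the peaks of replicates 2 and 3 ended within 2 bp of each other. Whether these lists are fully separate measurements was not tested, and counts that moved by over 1.5 times without replicate 2 are given in both ways.

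The reference sequences of 6 common sites are shown because they hold words that the results on sequence turn on. They are on the plus strand of mm9, as the common stretch or its middle 300 bases. Capitals mark exact matches on either strand to the SOX words, to the POU octamer (ATGCAAAT or ATGCTAAT) and to the RBPJ word (CGTGGGAA or TGTGGGAA). The SOX words are AACAAA or AACAAT, then GACAAA or GACAAT, and the shorter core written as ACAAAA or ACAAAG and as ACAATA or ACAATG, which can overlap the others. The first 3 sites hold an RBPJ word, the Hes3 site holds 4 SOX core words, the Id3 site holds GACAAT 3 times, and the Id2 site holds AACAAA.
Hes5 promoter, chr4:154334757-154335014: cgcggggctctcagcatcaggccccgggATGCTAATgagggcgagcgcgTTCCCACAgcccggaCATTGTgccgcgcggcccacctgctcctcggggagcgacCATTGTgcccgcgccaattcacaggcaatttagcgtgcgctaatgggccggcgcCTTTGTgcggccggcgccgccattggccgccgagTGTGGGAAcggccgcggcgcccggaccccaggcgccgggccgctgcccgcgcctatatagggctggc
Hes5 site 2505 bp upstream, chr4:154332467-154332587: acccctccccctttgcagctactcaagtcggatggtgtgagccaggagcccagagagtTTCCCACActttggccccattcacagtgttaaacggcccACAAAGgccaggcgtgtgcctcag
Id1 site 18065 bp upstream, chr2:152543846-152543998: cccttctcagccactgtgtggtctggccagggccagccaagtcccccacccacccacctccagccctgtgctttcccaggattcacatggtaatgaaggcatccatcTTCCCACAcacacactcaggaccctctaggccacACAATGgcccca
Hes3 intronic site, chr4:151664546-151664845: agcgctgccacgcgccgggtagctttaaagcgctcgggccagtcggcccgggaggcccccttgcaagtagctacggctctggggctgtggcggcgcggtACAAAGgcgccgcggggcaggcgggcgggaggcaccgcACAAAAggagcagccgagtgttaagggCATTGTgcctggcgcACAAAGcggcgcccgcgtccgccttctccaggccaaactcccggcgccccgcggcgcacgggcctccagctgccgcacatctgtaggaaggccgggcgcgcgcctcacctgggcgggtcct
Id3 site 16420 bp downstream, chr4:135715713-135715951: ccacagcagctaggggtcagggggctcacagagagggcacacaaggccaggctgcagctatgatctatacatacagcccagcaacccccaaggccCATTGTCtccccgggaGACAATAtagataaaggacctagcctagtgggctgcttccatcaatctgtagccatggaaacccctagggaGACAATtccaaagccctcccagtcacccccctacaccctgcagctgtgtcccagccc
Id2 site 28608 bp upstream, chr12:25809416-25809715: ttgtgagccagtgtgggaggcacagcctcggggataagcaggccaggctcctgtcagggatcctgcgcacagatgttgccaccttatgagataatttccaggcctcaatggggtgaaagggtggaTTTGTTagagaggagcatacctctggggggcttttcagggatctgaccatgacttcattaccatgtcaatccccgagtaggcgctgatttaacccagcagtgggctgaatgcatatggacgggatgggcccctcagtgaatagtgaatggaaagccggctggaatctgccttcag

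Of the 10 genes, 8 had at least 1 common site in their window, and the exceptions were Hes1 and Hey2. Across all protein-coding genes, the share with a common site in a window made the same way was 28.7%. The windows of the 10 genes were short, from 101 to 110.4 kb against a median of 115 kb for all genes, and with windows of equal length (50 kb to each side of the gene start) 8 of the 10 genes compared with 23.0% of all genes. The 10 windows held 13 common sites, or 1.3 per gene against 0.484 per gene for all protein-coding genes. Leaving out any 1 replicate again gave 8 genes, with 13 to 15 sites, while the share of all genes rose to between 29.4 and 39.3%. No test was made of these shares, since there is 1 group of samples and the choice of genes was not blind to these data. Hes5 had 4 common sites, Hes6 and Id2 had 2 each, and Hes3, Hey1, Id1, Id3 and Id4 had 1 each. At least 2 common sites were found for 3 of the 10 genes and for 8.98% of all genes. Of the 13 sites, 10 lay upstream of the gene start and 3 downstream of it, and 7 lay between 16420 and 45543.5 bp away. At 10 of the sites the nearest coding start was that of the Hes, Hey or Id gene itself, and the other 3 were closer to Tnfrsf14, Per2 or E2f2.

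**Figure D1:**
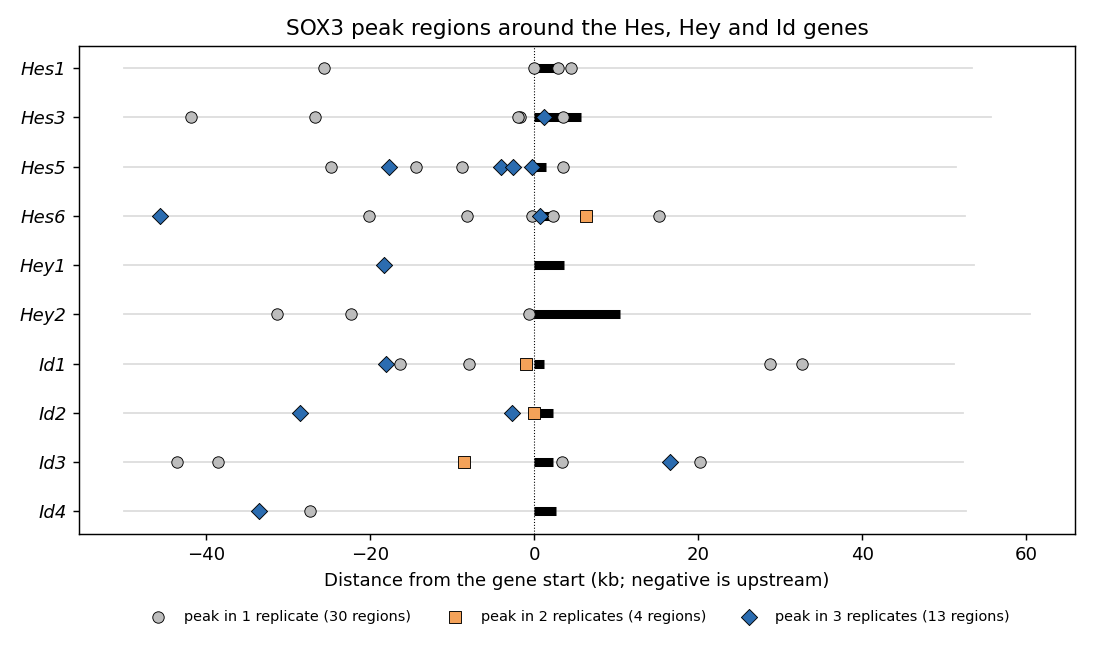
Regions of overlapping SOX3 peaks in the window of each gene, by the distance of their middle from the gene start in kb; black bars are gene bodies, grey lines are windows, and the symbol shows in how many replicates a peak was found. Regions with peaks in 3 replicates (13, diamonds) lie around 8 of the 10 genes and mostly upstream, while Hes1 and Hey2 have only regions found in 1 replicate.

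Merging all overlapping peaks gave 47 regions in the 10 windows from 77 peaks (31, 15 and 31 in replicates 1, 2 and 3). Of these regions, 13 had a peak in every replicate, 4 in 2 replicates and 30 in only 1 replicate. The same split over the whole genome is not given, so these counts cannot be read as a trait of the 10 genes. The regions found once came from replicate 1 (16 regions) or replicate 3 (14 regions), and none from replicate 2, whose list was the shortest (8096 peaks). Their median score was 77.4 in replicate 1 (range 52.6 to 177) and 55.4 in replicate 3 (range 50.2 to 65.4), while the medians at the 13 common sites were 285 and 172. A peak of a single list in the window was common in the genome: for replicate 1 it was found for all 10 genes and 67.7% of all genes, for replicate 2 for 8 genes and 38.3%, and for replicate 3 for all 10 genes and 84.6%.

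Hes5 (ENSMUSG00000048001, chromosome 4 from 154335032 to 154336480, plus strand), a Notch effector of the neural tube, had 4 common sites, more than any other of the 10 genes. At least 4 common sites were found for 1.66% of all protein-coding genes, and for 1.08% with windows of 50 kb to each side of the gene start. The site at the promoter (154334757 to 154335014) had its middle 146.5 bp upstream of the start and also overlapped an exon of a noncoding gene, RP24-89N4.5. It scored 263, 79 and 80.2 in replicates 1, 2 and 3, ranks 1891, 4240 and 11906 of their lists. The promoter peak was thus among the higher scores of replicate 1 (percentile 90) and near the middle of replicate 2 (percentile 47.6).

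Both other sites close to Hes5 were weak. The one 2505 bp upstream (154332467 to 154332587) scored 54 in replicate 1, 68 in replicate 2 and 77.9 in replicate 3, and the one 4087.5 bp upstream (154330872 to 154331017) scored 63.8, 58.4 and 70.3. These are within 30 points of the threshold score of 50 in every replicate. The fourth site, 17739 bp upstream (154317058 to 154317528), was the strongest around Hes5, with scores of 496, 233 and 489 and percentiles of 96.4, 88.6 and 98.1. It was intergenic and closer to the start of Tnfrsf14, a receptor of the tumour necrosis factor family, at 14621 bp. Hes5 thus had its highest score in all replicates at the distant site and not at the promoter. With a p-value of 1e-10 or less, only this distant site remained. Equal numbers of peaks also left Hes5 with 1 site, and in both settings Id2 had more, with 2.

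**Figure D2:**
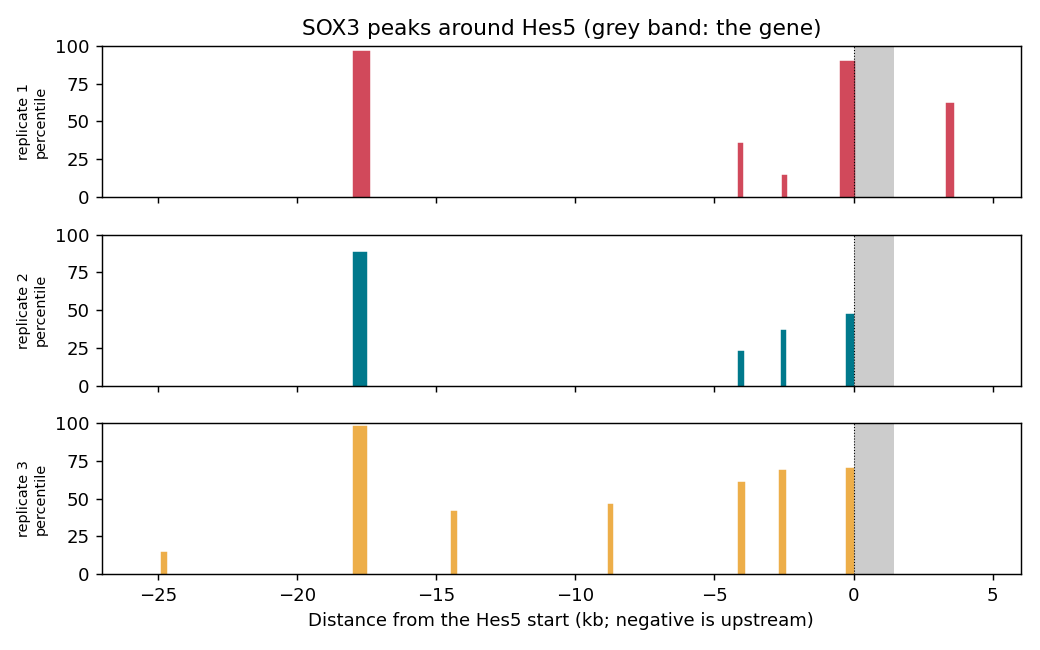
SOX3 peaks around Hes5 in each replicate: the x axis is the distance from the gene start in kb, the height of a bar is the percentile of the peak within its list, and the width of a bar is the width of the peak. The 4 common sites, at 0.146, 2.5, 4.09 and 17.7 kb upstream, have a bar in every replicate, and the distant one is highest in each.

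Hes3 (ENSMUSG00000028946, chromosome 4 from 151660081 to 151665771, minus strand) encodes a repressor of early neural progenitors and had 1 common site, in an intron. The site (151664512 to 151664878) lay 1076 bp downstream of the gene start, with scores of 552, 254 and 331 in replicates 1, 2 and 3. These are the ranks 577, 800 and 1317, at or above the 90th percentile of each list. A common site as high as this in each list was found in the window for 2 of the 10 genes (Hes3 and Hey1) and for 4.52% of all genes. Hes3 had 5 further regions in 1 replicate each, none with a score over 56.5.

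Hes6 (ENSMUSG00000067071, chromosome 1 from 93308060 to 93310615, minus strand), a relative that counteracts Hes1 and favours differentiation, had 2 common sites. The first (93309801 to 93310034) lay in an intron 697.5 bp downstream of the gene start and 118.5 bp upstream of a second annotated transcript start, with scores of 126, 73 and 81 in replicates 1, 2 and 3. The second (93355968 to 93356349) scored 663, 239 and 371, and so was higher in every replicate. It lay 45543.5 bp upstream of Hes6 but 251.5 bp from a start of Per2, which encodes a repressor of the circadian clock, its nearest coding gene. A further region of replicates 2 and 3, 6301 bp downstream of the Hes6 start, had scores of 52.7 and 110.1.

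Hes1 (ENSMUSG00000022528, chromosome 16 from 30064470 to 30067882, plus strand) is the most widely used Notch effector of the family and had no common site in its window. It had 4 regions, each found in 1 replicate. The highest was a replicate 1 peak from 30064264 to 30064563 with a score of 149 (percentile 77.4), whose middle lay 56.5 bp upstream of the outermost annotated start and 1012.5 bp upstream of the next one. The other replicate 1 peaks scored 52.6 and 60.4, and the single replicate 3 peak scored 53.7. No replicate 2 peak lay in the window. Over all genes, 9.36% had, like Hes1, a replicate 1 peak within 2 kb of the start and no common site.

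Hey1 (ENSMUSG00000040289, chromosome 3 from 8663362 to 8667039, minus strand), a Notch-responsive repressor, had a single region in its whole window, and this was the highest-scoring common site of the set in each replicate. It ran from 8685224 to 8685524, in intergenic sequence 18335 bp upstream of the start, and Hey1 was the nearest coding gene. The scores were 762, 351 and 563 in replicates 1, 2 and 3, which are the ranks 285, 471 and 603 and the percentiles 98.5, 94.2 and 98.5. Hey2 (ENSMUSG00000019789, chromosome 10 from 30552165 to 30562607, minus strand), its close relative, showed the opposite picture. It had 3 regions in 1 replicate each, with scores of 66.3 in replicate 1 and of 55.9 and 50.2 in replicate 3, and none in replicate 2.

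Each of the 4 Id genes had a common site, and none of these was within 2 kb of the gene start. Id1 lost its site at a p-value of 1e-10 or less and with equal numbers of peaks, and Id3 at a p-value of 1e-10 or less and with a reciprocal overlap of 50%, while Id2 and Id4 kept theirs under all of these. Id2 (ENSMUSG00000020644, chromosome 12 from 25778666 to 25780957, minus strand) had 2, both upstream and intergenic. The nearer one (25783530 to 25783897), 2756.5 bp from the start, scored 292, 156 and 194 in replicates 1, 2 and 3. The farther one (25809389 to 25809741), 28608 bp from the start, scored 428, 231 and 469 and so was higher in all replicates. A further region, 41.5 bp upstream of the start, had peaks in replicates 1 and 3 with scores of 55 and 83 and no peak in replicate 2.

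Id4 (ENSMUSG00000021379, chromosome 13 from 48356796 to 48359405, plus strand), which is expressed in neural stem cells, had 1 common site 33564 bp upstream (48323095 to 48323369), with scores of 221, 135 and 172 in replicates 1, 2 and 3. Id3 (ENSMUSG00000007872, chromosome 4 from 135699412 to 135701670, plus strand) had 1 site (135715713 to 135715951) 16420 bp downstream of its start, with scores of 285, 78.3 and 134. This site lay outside Id3 and was nearer to the start of E2f2, a cell cycle regulator, at 12477 bp. A further region 8602.5 bp upstream of Id3 had peaks in replicates 2 and 3, with scores of 58.2 and 94.2, so that without replicate 1 Id3 had 2 shared sites in place of 1. Id1 (ENSMUSG00000042745, chromosome 2 from 152561987 to 152563146, plus strand) had 1 site 18065 bp upstream (152543846 to 152543998), with scores of 60.1, 99.4 and 128. The Id1 site was the only one of the Id genes whose score was lowest in replicate 1. Close to the Id1 start, a region 1052.5 bp upstream had weak peaks in replicates 1 and 3, with scores of 70.7 and 50.6. Without replicate 2 it counted as a shared site, so that Id1 had 2 such sites in place of 1.

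Peaks at the 13 common sites spanned percentiles 14.8 to 98.5 of the replicate 1 list, 22.9 to 94.2 of the replicate 2 list and 60.9 to 98.5 of the replicate 3 list. Their median percentiles were 91.1, 74.9 and 91.9, and those over all 5537 common sites were 82.3, 64.9 and 92.8, so the difference did not have the same sign in every list. At 7 sites the peak was at or above the 50th percentile of every list, while this was the case for 61.9% of all common sites. The sites at Hey1, Hes3, Hes6 (45.5 kb), Hes5 (17.7 kb) and Id2 (both) were at or above the 75th percentile of every list, 6 in all, against 32.8% of all common sites. Of the 13 sites, 11 had their lowest percentile in replicate 2 and 2 in replicate 1, as was the case for 79.4% and 19.9% of all common sites. The promoter site of Hes5, the 0.698 kb site of Hes6 and the Id3 site were between percentiles 70.6 and 91.1 in replicates 1 and 3 and between 42.4 and 47.6 in replicate 2. None of the peaks at the 13 common sites held 50-base sequences that occur elsewhere in the genome. Of the 77 peaks in the windows, 3 were mostly made of such sequences, all in regions found in 1 replicate. They were replicate 1 peaks of Hes6 (score 82.1), Hey2 (66.3) and Id4 (177, the highest score among regions found once).

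**Figure D3:**
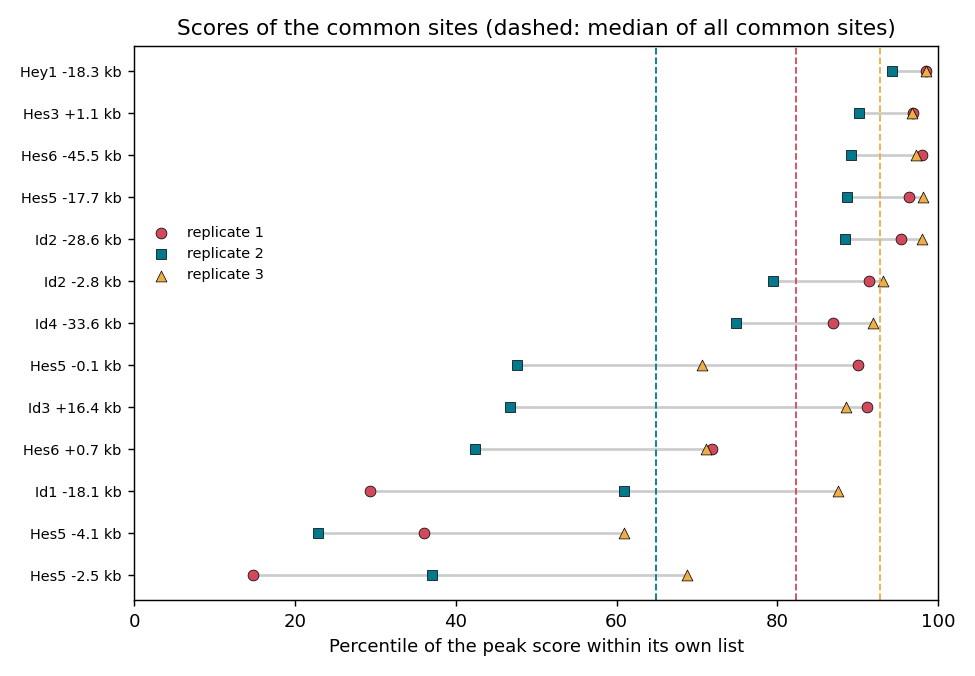
Percentile of the peak score within its own list for each of the 13 common sites, named by gene and distance from the gene start, with 1 symbol for each replicate and dashed lines at the medians of all 5537 common sites. The Hey1 and Hes3 sites are above the 90th percentile in each list. The 2 weak sites upstream of Hes5, the 0.698 kb site of Hes6 and the Id1 site are below the dashed line of every replicate.

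A common site lay within 2 kb of the gene start for 3 of the 10 genes, Hes3, Hes5 and Hes6, and for 4.01% of all protein-coding genes. Replicate 1 had a peak there for 6 genes (Hes1, Hes3, Hes5, Hes6, Id1 and Id2) and 18.1% of all genes, replicate 2 for 3 genes and 5.18%, and replicate 3 for 6 genes (Hes3, Hes5, Hes6, Hey2, Id1 and Id2) and 15.4%. Without replicate 2, sites of the other replicates lay within 2 kb of the start of 5 genes, which adds Id1 and Id2, and of 6.70% of all genes. Without replicate 1 or without replicate 3 the count was 3, against 5.01 and 4.11% of all genes. At a p-value of 1e-10 or less, Hes3 alone kept its site, and 1.65% of all genes had one. With equal numbers of peaks from each list it was again Hes3 alone, against 2.76% of all genes. The number of genes with a common site rose with the window, from 4 genes with a flank of 10 kb to 7 with 25 kb, 8 with 50 kb and 9 with 100 kb, while the share of all genes rose from 14% to 20.3, 28.7 and 42.1%.

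**Figure D4:**
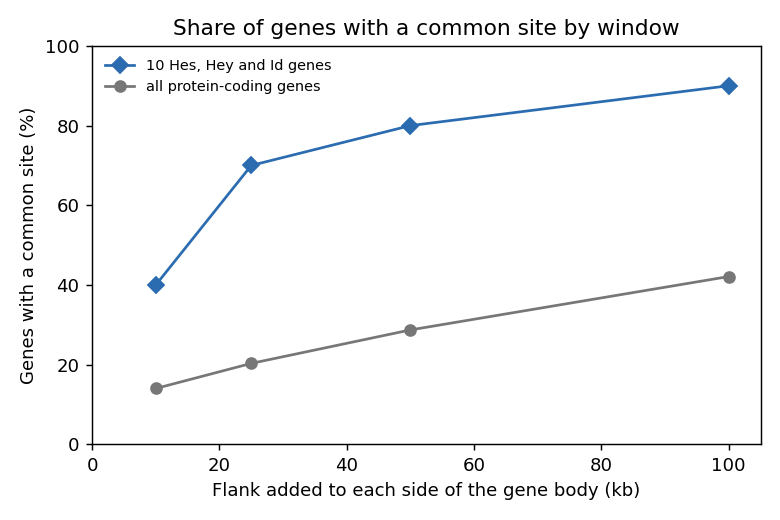
Share of genes (y axis, %) with a common site, against the flank added to each side of the gene body (x axis, kb), for the 10 Hes, Hey and Id genes and for all 22367 protein-coding genes. The share of the 10 genes is 40, 70, 80 and 90%, and that of all genes is 14, 20.3, 28.7 and 42.1%.

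The words marked in the sequences shown above were counted exactly on both strands. The shorter core of the SOX words was present in 12 of the 13 common sites (92.3%), against 74.4% of all common sites without unknown bases and 57.2% of equally wide flanking windows that began 2000 bp from their edges. With every site set to a width of 200 bp the gap was smaller, with 10 of 13 (76.9%) against 72.8% of all common sites. The site without one was that at Per2. AACAAA or AACAAT was present in 3 sites (23.1%), those of Hey1 and Id2, against 53% of all common sites, and in 4 of the 26 flanking windows of the 13 sites (15.4%), against 40.5% of all flanking windows. GACAAA or GACAAT was present in 5 sites (38.5%), at Hes5, Hes6, Hey1 and Id3, against 38.5% of all common sites. At a width of 200 bp these words were present in 3 of 13 (23.1%), against 34% of all common sites. The POU octamer was found in 1 site, the Hes5 promoter (ATGCTAAT at 154334785 to 154334792), against 9.84% of all common sites. At a width of 200 bp it was found in 0 of 13, against 8.71%. The composite SOX/POU word was in none of the 13, against 6.47%. The median share of G and C was 60.1% in the 13 sites, 49.6% in all common sites and 44% in the flanking windows; its part in these word counts was not tested.

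The RBPJ word was present in 4 of the 13 sites (30.8%), against 126 of 5536 common sites (2.28%) and 2.27% of the flanking windows; of the 26 flanking windows of the 13 sites, 2 held it. These 4 sites belong to 3 genes, since 2 of them lie upstream of Hes5. The Hes5 promoter site held the word TGTGGGAA 2 times, once reading along the minus strand (154334806 to 154334813) and once along the plus strand (154334948 to 154334955), 222.5 and 80.5 bp upstream of the start. The Hes5 site 2505 bp upstream held it at 154332525 to 154332532. The fourth site with the word was that of Hey1. The Id1 site held TGTGGGAA at 152543953 to 152543960. At a width of 200 bp the word was again present in 4 of 13, against 1.7% of all common sites, and in 3 of the 26 flanking windows of the 13 sites (11.5%). The count fell with a stricter choice of peaks: at a p-value of 1e-10 or less, 1 of 7 sites held the word (Hey1), against 2.65% of all common sites left, and with equal numbers of peaks 1 of 8 (Hey1), against 2.36%. The count of this word was not a planned result in any of these settings, and the stricter ones were added after the data were seen.

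Upstream of the annotated transcript starts, within 300 bases, the RBPJ word was found for 3 of the 10 genes (Hes1, Hes5 and Hey2) and for 5.44% of all protein-coding genes, with every annotated start of a gene counted. The word of Hes1, at 30065344 to 30065351 and 78.5 bp from a start, and that of Hey2, at 30562789 to 30562796 and 185.5 bp from the start, lay in no peak of any replicate. Both words at the Hes5 promoter lay inside a peak of all 3 replicates. A match to these letters is not a measurement of RBPJ binding, and the word does not cover every sequence that RBPJ can bind.

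Genes that act with the Hes, Hey and Id families were read the same way, from lists that were also chosen with earlier results known. Of 20 genes of the Notch pathway, 13 had a common site in their window (23 sites in all), against 28.7% of all genes, and 4 of them had one within 2 kb of the start, against 4.01%. The windows of 14 of these genes were longer than the median of 115 kb, and with 50 kb to each side of the gene start 12 of the 20 had a common site, against 23.0% of all genes. The 4 genes with a common site within 2 kb of the start were Nrarp, Notch3, Jag1 and Numb. The site of Nrarp, a feedback inhibitor of Notch, scored 1749.7, 916 and 1730.1 in replicates 1, 2 and 3 at 73 bp from its start. That of the receptor gene Notch3 scored 169.8, 87.6 and 129, and that of the ligand gene Jag1 scored 123, 71.2 and 55.3. The site of Numb, an inhibitor of the receptor, scored 55.2, 55.2 and 84.5. The Nrarp site was above the highest site of the 10 Hes, Hey and Id genes in each replicate. Among 6 close relatives (Hes2, Hes7, Heyl, Helt, Bhlhe40 and Bhlhe41), only Hes7, known for its role in the segmentation clock, had common sites, which numbered 2.

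Of 10 genes for BMP receptors and SMADs, which act upstream of the Id genes, 4 had a common site (Bmpr1b with 2, and Acvr1, Smad1 and Smad7 with 1 each), and none within 2 kb of the start. The share of all genes was 28.7% in the window and 4.01% within 2 kb, here and for the lists that follow, and the window of each of these 10 genes was longer than the median. With 50 kb to each side of the gene start, 1 of the 10 BMP and SMAD genes, 1 of the 3 E protein genes and 3 of the 6 Groucho genes had a common site, against 23.0%. Of the 3 E protein genes, whose products the Id proteins bind, Tcf3 and Tcf12 had 2 and 3 common sites and Tcf4 had none. Among proneural genes, which Hes proteins repress, Neurog1 had a common site 88.5 bp from its start with scores of 247, 56 and 54.6, Neurod1 had one 26933 bp from its start, and Neurog2, Neurog3, Neurod4 and Atoh1 had none. Of 6 genes of the Groucho corepressors, through which Hes proteins act, 3 had a common site, and the closest sites of Tle3 and Tle4 lay 175 and 348.5 bp from the start. An RBPJ word was present in 3 of the 23 common sites of the Notch pathway genes, 1 of the 2 of Hes7, 1 of the 5 of the BMP and SMAD genes, 2 of the 9 of the progenitor genes Nes, Sox2 and Pax6, and 0 of the 5 and 6 of the E protein and Groucho genes, against 2.28% of all common sites.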

How the data were processed

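SOX3 ChIP-Seq peaks of 3 biological replicates of NP cells were used. The authors aligned 50 bp single-end reads to mm9 with Bowtie (version 1.0.0 in the submitters' processing notes), ran MACS (version not given in the sources used here) on every replicate with the input as control, kept peaks up to a p-value of 1e-05, and deposited 1 list per replicate. The deposited score restates that p-value as its negative log10 multiplied by 10, without normalisation between lists. No reads were at hand and the input was not analysed here, so the depth is unknown. A weak site near the threshold can be missed in a shallower library, which limits the comparison of presence between lists.

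Common sites, windows (gene body plus 50 kb) and distances (middle of the site to the 5' end of the gene record) were computed in Python 3.11.15 with GENCODE vM1 on NCBIM37, the same assembly as mm9; all peaks lay within its chromosome lengths. Positions count from 1. Words were counted with pysam 0.24.0, and 50-base sequences that occur more than once with numba 0.67.0; a peak was mostly multi-copy when over 50% of its 50-base sequences were such. All 10 genes and their common sites are named; of the other lists, genes with a common site within 2 kb of the start are named, otherwise up to 4 with the most sites. Neurod1, the genes named as having no common site and the members of the list of close relatives fall outside this rule and were added after their values were seen. The genes, lists and words were chosen with earlier results of these data known, and no test was made. The count over the list of proneural genes and the sequence of 1 site are not reported here. On simulated peaks of chromosome 1, 300 of 300 planted common sites were found and 1238 of 1238 genes were assigned correctly.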

Additional observations from a re-analysis of the deposited data

How the results depend on the processing

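The number of genes with a common site was 8, with 13 sites, 28.7% of all genes and 3 genes with a site within 2 kb of the start. A flank of 10 kb gave 4 genes, 6 sites and 14% of all genes. Peaks with a p-value of 1e-10 or less gave 6 genes, 7 sites, 15.2% of all genes and 1 gene with a site within 2 kb. Equal numbers of peaks in each list (8096) gave 8 sites and 1 gene with a site within 2 kb. Leaving out each replicate in turn, the genes with a site within 2 kb numbered from 3 to 5, the highest without replicate 2. The flank has no bearing on the sites within 2 kb by construction, so no value is given for it. The RBPJ word, whose count was not a planned result in any setting, was in 4 sites. It was in 1 at a p-value of 1e-10 or less and 1 with equal numbers of peaks, settings chosen for this word after seeing the data. In windows of 200 bp, 3 sites held GACAAA or GACAAT (23.1%, against 34% of all common sites), compared with 5 in the full sites. For single genes, a flank of 10 kb left 7 of the 10 with fewer sites (6 of them by over 1.5 times). A flank of 25 kb left 3 with fewer (Hes6, Id2 and Id4), and equal numbers of peaks left 3 (Hes5, Hes6 and Id1). A p-value of 1e-10 or less left 4, and a reciprocal overlap of 50% left 1 (Id3). Id3 had 2 sites without replicate 1 and Id1 had 2 without replicate 2, in place of 1 each, while peaks with midpoints within 300 bp and the removal of mostly multi-copy peaks changed none by over 1.5 times. The cause of these changes was not tested beyond the construction of each alternative. No paired analysis was possible because the design has 1 group of ChIP samples.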

Other observations

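With a flank of 100 kb, 5 more common sites were reached, at Hes1, Hes6, Id1, Id3 and Id4. The one at Hes1 (chromosome 16 from 30129561 to 30129845) lay 65233 bp downstream of the gene start, with Hes1 as the nearest coding gene. It scored 533, 76.8 and 191 in replicates 1, 2 and 3 (percentiles 96.8, 45.3 and 93). In replicates 1 and 3 this was higher than any peak inside the 50 kb window of Hes1, which had none in replicate 2. The Id4 site lay 89660 bp upstream, also with Id4 as the nearest coding gene, and scored 189.6, 52.1 and 77.8. The other 3 sites were nearer to Traf3ip1, Bcl2l1 and Rpl11. Hey2 had no common site within 100 kb of its body.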
